A study of Homo sapiens with 4 samples.

Results

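Expression of 9 genes for enzymes that make pyrimidine nucleotides and DNA precursors was described in MOLM-13, an established human acute myeloid leukaemia line with a KMT2A fusion. The genes, taken by name from 24940 in the count table, were CAD, DHODH, UMPS, CTPS1, CTPS2, TYMS, RRM1, RRM2 and TK1; each was present once, and all 9 passed the filter of at least 1 CPM (counts scaled to a common library total, with TMM factors) in at least 1 library, as did 13726 genes in all. Total RNA was sequenced from cells infected with lentiviruses carrying a control hairpin (shControl), a hairpin against Bcl-2 (sh-Bcl2), one against c-Myc (sh-c-Myc) or both (sh-c-Myc_sh-Bcl2, here the double knockdown or both hairpins). All 4 groups, the control included, are described with viral infection, drug selection in puromycin (0.5 µg/ml) or G418 (600 µg/ml), and doxycycline induction of the hairpin. The doxycycline time in the labels, 72 h, is that of the western blots. Whether the sequenced cultures had the same induction, and which drug each group received, is not clear from the labels. Each group held 1 library, of 14421558 to 15691129 counts, so no difference between groups has a replicate check, and the hairpin's effect and the difference between 2 cultures cannot be told apart. Whether a hairpin population was a clone or a pool, and the number of hairpin sequences per gene, were not given in the sources used here.

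Pyrimidine nucleotides are built from glutamine, bicarbonate and aspartate. CAD carries the opening steps of that route in a single protein, DHODH oxidises dihydroorotate at the inner mitochondrial membrane, UMPS completes UMP, and the CTP synthases CTPS1 and CTPS2 turn UTP into CTP. Ribonucleotide reductase, made of the large subunit RRM1 and the small subunit RRM2, reduces ribonucleotides to deoxynucleotides; TYMS makes dTMP from dUMP, and TK1 salvages thymidine. RRM2, TK1 and TYMS are known for expression tied to S phase, CAD is a known c-Myc target gene, and cytarabine and hydroxyurea, both used in leukaemia, act on DNA precursor supply or its use.

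The libraries were checked first. BCL2 stood at 119.7 CPM with shControl, 38.7 with sh-Bcl2, 112 with sh-c-Myc and 44.5 with both hairpins. MYC stood at 434, 364, 278 and 302 CPM in the same order, a log2 ratio to shControl of -0.64 with sh-c-Myc and -0.52 with both hairpins, so MYC RNA was lower by less than 2-fold. Of 8 markers chosen for a myeloid leukaemia line, 7 passed the CPM filter, and the missing one, ANPEP, had at most 2 counts in any library. Of 8 monocyte and macrophage markers, 6 were called higher (at least 2-fold, by the rule below) in each of sh-c-Myc and the double knockdown. Of all genes tested, 12.7% and 7.11% were called higher in these libraries. In sh-Bcl2 3 of the 8 were called higher, against 4.61% of all genes in either direction. CD14 (11 to 19 counts) and FCGR1A were not called. The summed level of all 8 was 245, 365, 885 and 939 CPM across shControl, sh-Bcl2, sh-c-Myc and the double knockdown. The part of this marker change in the enzyme results was not tested. No T cell marker of 4 was in the table, and summed erythroid markers reached at most 0.595 CPM and epithelial or fibroblast markers 0.192 CPM. B cell markers summed to 2.13, 2.11, 5.13 and 3.58 CPM in the order above. In bulk RNA, fewer cells of a kind (such as fewer cells in S phase) and less RNA per cell cannot be told apart.

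Levels per length (FPKM, fragments scaled to gene length and library total) placed RRM1, TK1 and CAD highest and CTPS2 lowest. In shControl the order was RRM1 at 48.7 FPKM, TK1 at 42.8, CAD at 37.8, RRM2 at 18.3, CTPS1 at 13.4, UMPS at 11.1, TYMS at 7.26, DHODH at 3.66 and CTPS2 at 1.18, and no neighbours in that order had overlapping 95% counting intervals. In sh-c-Myc, RRM1 and TK1 stood level at 21.0 FPKM each, and RRM2 (5.11), UMPS (4.84) and TYMS (4.55) each overlapped its neighbour; RRM2 there stood below CTPS1 (6.29). In the other libraries RRM2 stood above CTPS1. UMPS and TYMS also overlapped in sh-Bcl2 and in the double knockdown. The order between genes rests on the length used, all exon bases of a gene, from 1861 for TK1 to 11517 for CTPS1. Counting intervals do not cover that choice, and the lengths of the transcripts present were not measured. By CPM in shControl, CTPS1 (163) stood above RRM2 (102) and TK1 (83.9). The summed level of the 9 genes was 1039 CPM with shControl, 1015 with sh-Bcl2, 402 with sh-c-Myc and 624 with both hairpins.

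Positions are on GRCh38. CAD (chr2:27217390-27243943), DHODH (chr16:72008588-72027664) and UMPS (chr3:124730366-124749273) are the UMP branch, and CTPS1 (chr1:40979335-41012565) and CTPS2 (chrX:16588003-16712936) the CTP synthases. RRM1 is at chr11:4094707-4138876, RRM2 at chr2:10120698-10131419, TYMS at chr18:657604-673578 and TK1 at chr17:78174075-78187233. Counts were taken over whole genes, all 9 protein-coding, with positions from GENCODE 29.

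**Figure D1:**
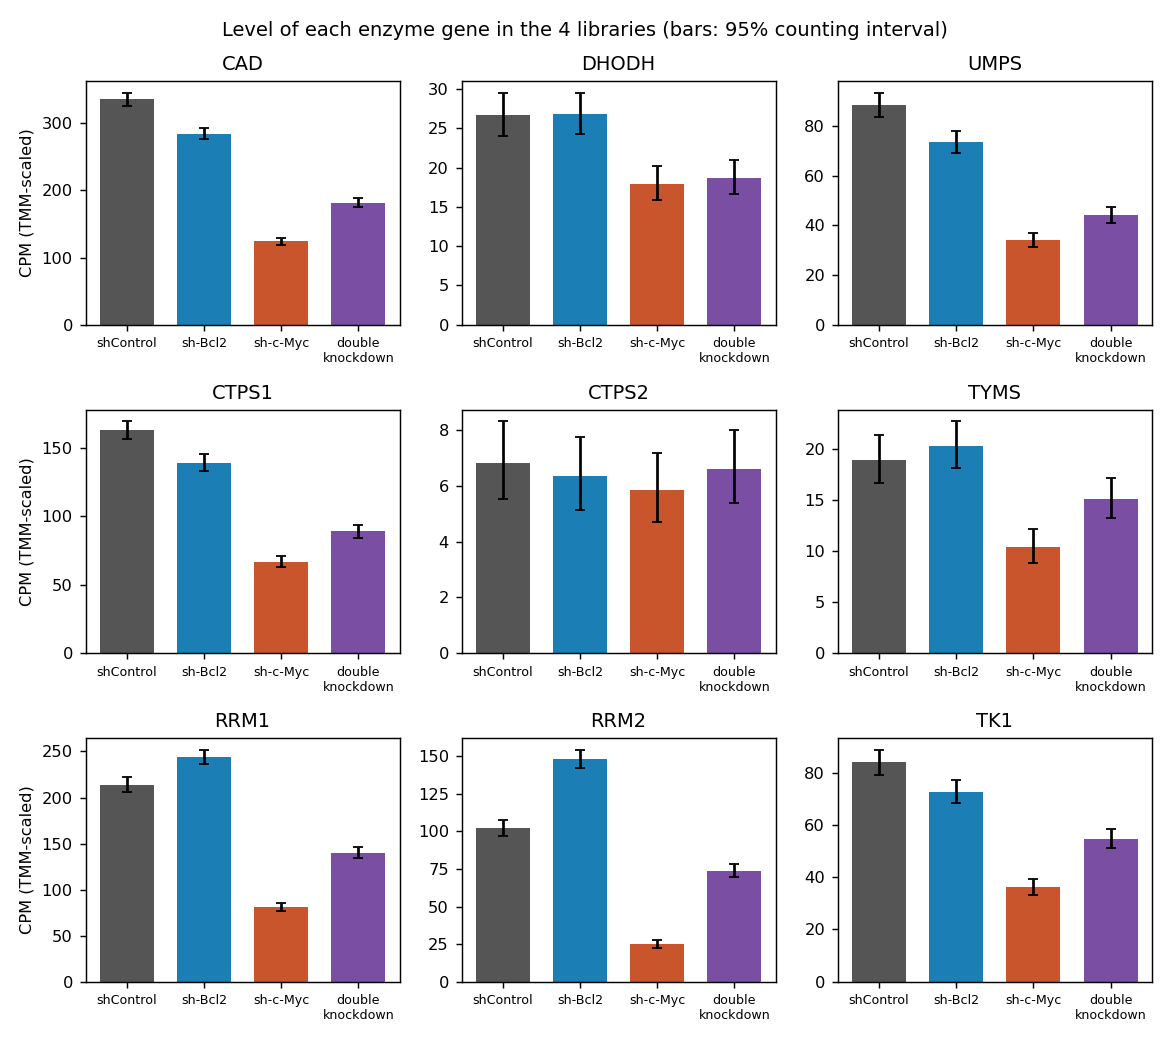
Level of each of the 9 enzyme genes in CPM scaled with TMM factors (vertical axes from 0, a separate scale per gene) in the 4 libraries, with 95% intervals for counting error only. For 8 genes the sh-c-Myc or double knockdown bar stands clear of shControl, whereas CTPS2 stays between 5.84 and 6.81 CPM.

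The sh-c-Myc library was compared with shControl to describe the c-Myc hairpin alone. Of the 9 genes, 6 were called lower (at least 2-fold, a 95% counting interval that excludes a ratio of 1) and 0 higher; over all genes tested 9.8% were called lower, 12.7% higher and 22.5% in either direction. The median log2 ratio of the 9 genes was -1.28, against -0.02 for all genes tested and -0.10 for those averaging 50 counts or more. All 9 ratios were below 0, with an interval that included 0 for CTPS2 only. At a 1.5-fold limit TYMS was also lower, making 7, against 20.4% of all genes.

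In the UMP branch, CAD was at 335 CPM with shControl, 284 with sh-Bcl2, 124 with sh-c-Myc and 182 with both hairpins. Both libraries with the c-Myc hairpin lay below both without it, and sh-c-Myc lay lowest, at a log2 ratio to shControl of -1.44 [-1.51 to -1.36]. UMPS, the enzyme that ends the branch, was at 88.3, 73.4, 33.9 and 44.1 CPM in the same order, with -1.38 in sh-c-Myc [-1.53 to -1.23]. Its profile followed that of CAD: within each library the FPKM ratio of CAD to UMPS stayed between 3.29 and 3.71. DHODH, the mitochondrial step between them, was at 26.7, 26.8, 17.96 and 18.7 CPM, a smaller difference of -0.57 [-0.80 to -0.34]. The 2 libraries with the c-Myc hairpin were level for DHODH, and the FPKM ratio of CAD to DHODH went from 10.3 in shControl to 5.67 in sh-c-Myc.

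The CTP synthases differed from each other. CTPS1, the form known for proliferating lymphocytes, was at 163 CPM with shControl, 139 with sh-Bcl2, 67.0 with sh-c-Myc and 89.0 with both hairpins, with a log2 ratio of -1.28 in sh-c-Myc [-1.39 to -1.17]. CTPS2, its paralog, was at 6.81, 6.34, 5.84 and 6.59 CPM from 91 to 103 counts, and its ratio of -0.22 had an interval of -0.65 to 0.21. The 4 CTPS2 levels were not distinguishable at this depth, and a 2-fold decrease lay outside the interval. CTPS1 exceeded CTPS2 per length by 11.4 times [9.31 to 14.2] in shControl and 5.49 times [4.43 to 6.88] in sh-c-Myc.

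Of the deoxynucleotide enzymes, RRM2 had the widest range of the 9 genes on the log2 scale. It was at 102 CPM with shControl, 148 with sh-Bcl2, 25.1 with sh-c-Myc and 74.0 with both hairpins. The sh-c-Myc library lay lowest and sh-Bcl2 highest, and sh-c-Myc was 4.07-fold below shControl [3.64 to 4.57]. RRM1 was at 214, 244, 81.3 and 140.0 CPM, the same order of libraries, and 2.63-fold lower in sh-c-Myc [2.47 to 2.81]. The small subunit differed more than the large one, so the FPKM ratio of RRM2 to RRM1 was 0.376 [0.352 to 0.400] with shControl, 0.476 [0.452 to 0.502] with sh-Bcl2, 0.243 [0.216 to 0.272] with sh-c-Myc and 0.415 [0.386 to 0.445] with both hairpins. TK1 was at 83.9, 72.7, 36.2 and 54.6 CPM, with a log2 ratio of -1.21 in sh-c-Myc [-1.36 to -1.07]. TYMS, the target of 5-fluorouracil, was at 18.9, 20.3, 10.4 and 15.1 CPM, a ratio of -0.86 [-1.15 to -0.57] that did not reach 2-fold. TYMS shares 39.1% of its exon bases with ENOSF1 on the other strand (722 to 836 counts per library) and RRM2 shares 20.2% with AC007240.1 (12 to 46 counts). With the strand setting of the counting unknown the TYMS value is uncertain, and the RRM2 counts may be affected by its overlap, which lies on the same strand.

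RRM2B, the small subunit known as the p53-induced alternative to RRM2, was at 74.8 CPM with shControl, 82.1 with sh-Bcl2, 92.1 with sh-c-Myc and 109.4 with both hairpins. It did not follow RRM2, and the largest of its ratios to shControl was 0.55 [0.44 to 0.66] in the double knockdown. The FPKM ratio of RRM2 to RRM2B was 1.43 with shControl, 1.88 with sh-Bcl2, 0.285 with sh-c-Myc and 0.705 with both hairpins. Per length and as counted, RRM2 lay above RRM2B in the 2 libraries without the c-Myc hairpin and below it in the 2 with it.

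**Figure D2:**
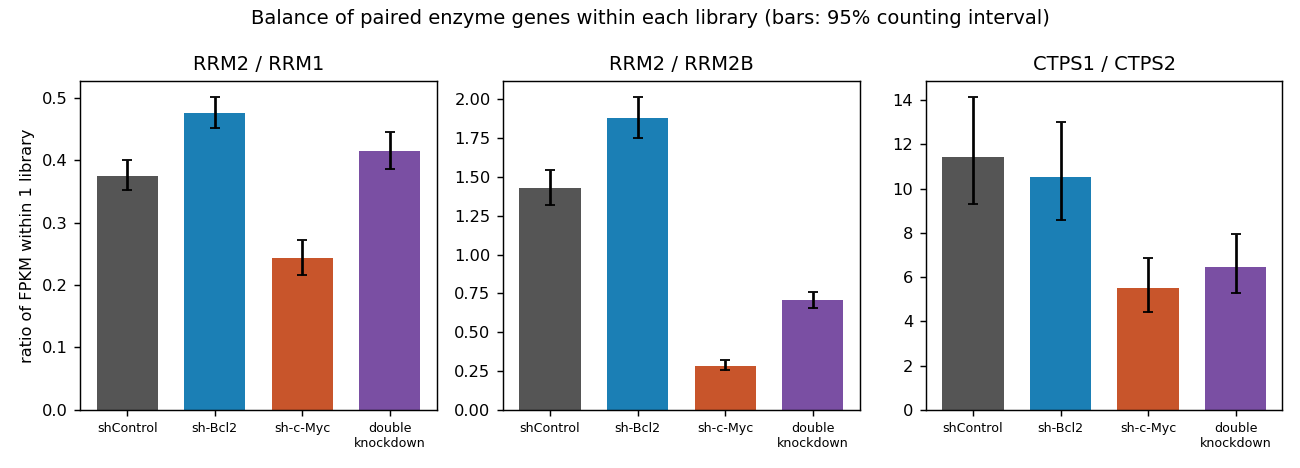
Ratio of FPKM within each library (vertical axes from 0) for RRM2 to RRM1, RRM2 to RRM2B and CTPS1 to CTPS2, with 95% intervals for counting error. The RRM2 to RRM2B ratio is 1.43 and 1.88 without the c-Myc hairpin and 0.285 and 0.705 with it.

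Promoter letters were read for the genes from RefSeq windows on GRCh38.p14 that run from 250 bases before to 50 after each start; 13 windows covered all 9 genes. Stretches were chosen for RRM2, TK1 and RRM1 because these were called lower in sh-c-Myc and hold CCAAT letters close to the start. DHODH, which was not called, was added because it alone holds the c-Myc-type E-box CACGTG within these windows. Letters outside the windows, such as farther downstream of a start, were not searched. Whether CAD or the other genes hold CACGTG there is therefore not known from this search. Capitals mark CCAAT (or ATTGG, the same letters on the other strand) in the RRM2, TK1 and RRM1 lines, and CACGTG in the DHODH line. DHODH also holds CCAAT, left in lower case there, 22 bases before its start. Each is printed 5′ to 3′ on the gene's own strand and ends 1 base before the start.
RRM2, chr2:10122609-10122738 (+): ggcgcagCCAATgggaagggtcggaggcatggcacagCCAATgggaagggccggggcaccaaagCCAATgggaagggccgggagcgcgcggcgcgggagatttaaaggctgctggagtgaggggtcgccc
TK1, chr17:78187053-78187142 (-): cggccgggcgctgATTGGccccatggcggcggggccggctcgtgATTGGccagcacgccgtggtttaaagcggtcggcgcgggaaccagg
RRM1, chr11:4094645-4094684 (+): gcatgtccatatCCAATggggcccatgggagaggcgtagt
DHODH, chr16:72008574-72008743 (+): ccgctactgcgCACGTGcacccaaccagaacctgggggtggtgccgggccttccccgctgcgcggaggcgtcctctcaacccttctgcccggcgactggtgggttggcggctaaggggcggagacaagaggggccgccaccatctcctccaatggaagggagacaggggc

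RRM2 held CCAAT 123, 93 and 66 bases before this start, TK1 held it inverted at 77 and 46, and RRM1 held it at 28. DHODH, at a ratio of -0.57 [-0.80 to -0.34] in sh-c-Myc and not called at 2-fold, held it at 22, the nearest of these. Any link between CCAAT and the differences was not tested. Searched on both strands, CCAAT was in 5 of the 9 genes (CAD, DHODH, RRM1, RRM2 and TK1). That was 6 of the 13 windows, against 34.6% of all 35116 windows. CACGTG was in 1 of the 13 windows, 159 bases before the DHODH start, against 7.26% of all windows. CACGCG was in 0 of the 13, against 11.4% of all windows. An E2F-type core (the letters TTCCCGC, or TTGGCGC, or TTCGCGC, or TTGCCGC) was in RRM1, RRM2, TK1 and TYMS, all 4 of the deoxynucleotide enzymes. That was 4 of the 13 windows, against 13% of all windows. In RRM2 it lay only in the window of its other start, 192 bases before that start. None of these matches overlapped CCAAT. The letters TTTGAA, the core of the cell cycle homology region, were in RRM1 and UMPS, 2 of the 13 windows, against 15.2% of all windows. These are matches of letters in short windows and no measure of binding.

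The double knockdown was compared with shControl to see where the 9 genes stood when both hairpins were present; the comparisons share the shControl library. None of the 9 was called, against 5.95% of all genes tested called lower, 7.11% higher and 13.1% in either direction, and the median log2 ratio was -0.61. UMPS lay just inside the 2-fold limit at -0.9998 [-1.14 to -0.86], followed by CAD at -0.88, CTPS1 at -0.87, TK1 at -0.62, RRM1 at -0.61 and DHODH at -0.51. RRM2, the gene with the lowest ratio in sh-c-Myc, was at -0.47 [-0.58 to -0.36], TYMS at -0.32 and CTPS2 at -0.05; the CTPS2 value was 0.04 with total counts or upper quartile scaling. At 1.5-fold 5 genes were lower (CAD, UMPS, CTPS1, RRM1 and TK1), against 14.8% of all genes. With a trend on GC content and length removed UMPS and CTPS1 were called lower, against 12.8% of all genes called in either direction.

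The order of the genes thus differed between the 2 libraries with the c-Myc hairpin. Set directly against sh-c-Myc, the double knockdown was higher for RRM2 by 2.94-fold [2.62 to 3.31], the only call among the 9; 1.65% of all genes tested were called higher and 6.51% in either direction, and the RRM2 ratio of 1.56 lay at the 99.5th percentile of all ratios. At 1.5-fold RRM1, RRM2 and TK1 were higher, against 5.92% of all genes. RRM1 was at 0.78 [0.68 to 0.89], TK1 at 0.59, CAD at 0.55, TYMS at 0.54, CTPS1 at 0.41 and UMPS at 0.38, each with an interval above 0. These ratios followed GC content across genes (Spearman's rho -0.31, over genes, which are not independent replicates), and with the GC and length trend removed CAD was at 0.74, TK1 at 0.73 and RRM1 at 0.67, so the order among these genes depends on that step. CTPS2 was at 0.17 and DHODH at 0.06, each with an interval that included 0, and DHODH was at -0.04 with total counts. Of the log2 difference that sh-c-Myc showed from shControl, the share absent in the double knockdown was 76.8% for RRM2, 56.2% for RRM1, 49.0% for TK1, 38.5% for CAD, 32.0% for CTPS1 and 27.5% for UMPS. These shares were computed for the 6 genes called in sh-c-Myc only, and their differences were not tested. The same sh-c-Myc library picked these genes and enters each share, the direct ratio above and the departure below. A value too low in that library alone would raise all of them.

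**Figure D3:**
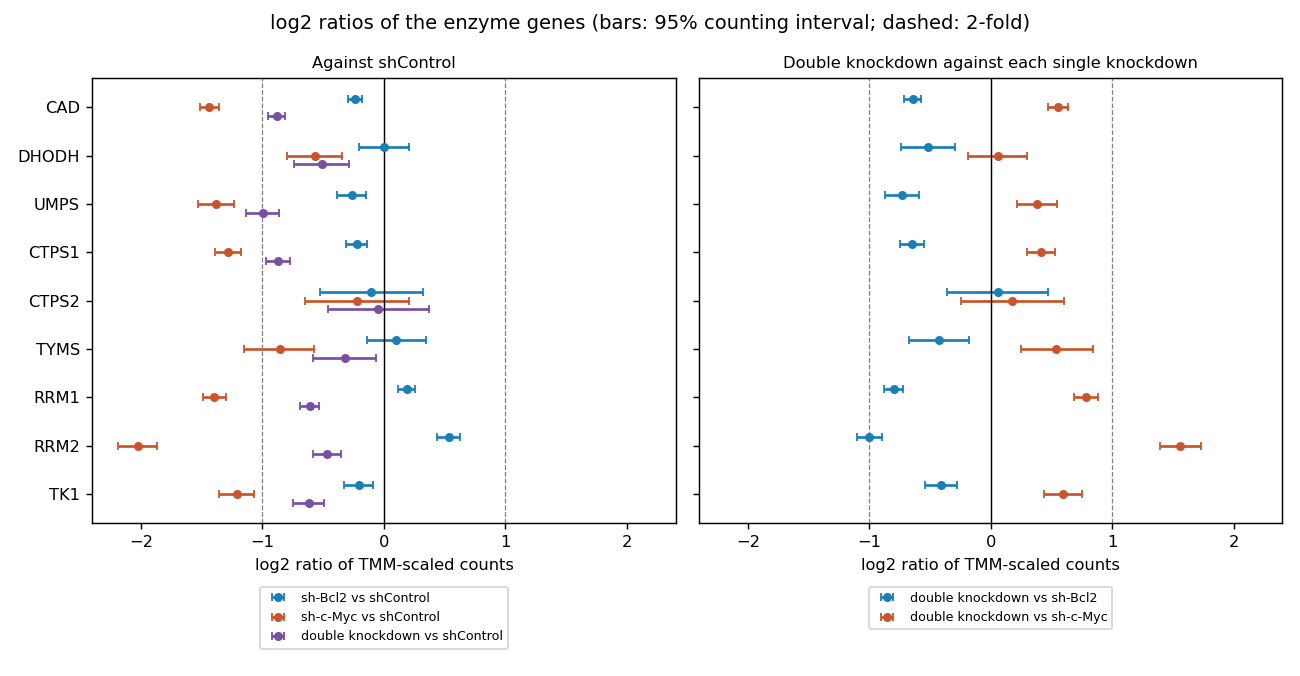
log2 ratios of TMM-scaled counts for the 9 genes with 95% intervals for counting error, against shControl (left) and for the double knockdown against each single knockdown (right); dashed lines mark 2-fold. RRM2 runs from -2.03 with sh-c-Myc to -0.47 with both hairpins, while DHODH stays at -0.57 and -0.51.

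The sh-Bcl2 library was compared with shControl to describe the Bcl-2 hairpin alone. None of the 9 genes was called, against 4.61% of all genes tested. RRM2 at 0.53 [0.44 to 0.63] and RRM1 at 0.19 [0.12 to 0.26] were above 0 beyond counting error. UMPS at -0.27, CAD at -0.24, CTPS1 at -0.22 and TK1 at -0.21 were below 0, whereas the intervals of TYMS (0.10), DHODH (0.00) and CTPS2 (-0.10) included 0. Ratios in this comparison followed GC content across 10739 genes (Spearman's rho -0.35, across genes, which are not independent replicates), and with a GC and length trend removed TK1 was at 0.05, CAD at -0.12, CTPS1 at -0.32 and RRM2 at 0.51. Against sh-Bcl2, the double knockdown had RRM2 called lower at -1.002 [-1.11 to -0.90], with 3.61% of all genes called lower and 8.8% in either direction. This RRM2 call rests on the limit: it was lost with total counts (-0.94), DESeq2 size factors (-0.998), upper quartile scaling (-0.96), FPKM with 1 added (-0.89) and the GC and length trend removed (-0.96). At 1.5-fold 5 genes were lower (CAD, UMPS, CTPS1, RRM1 and RRM2), against 10.5% of all genes.

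**Figure D4:**
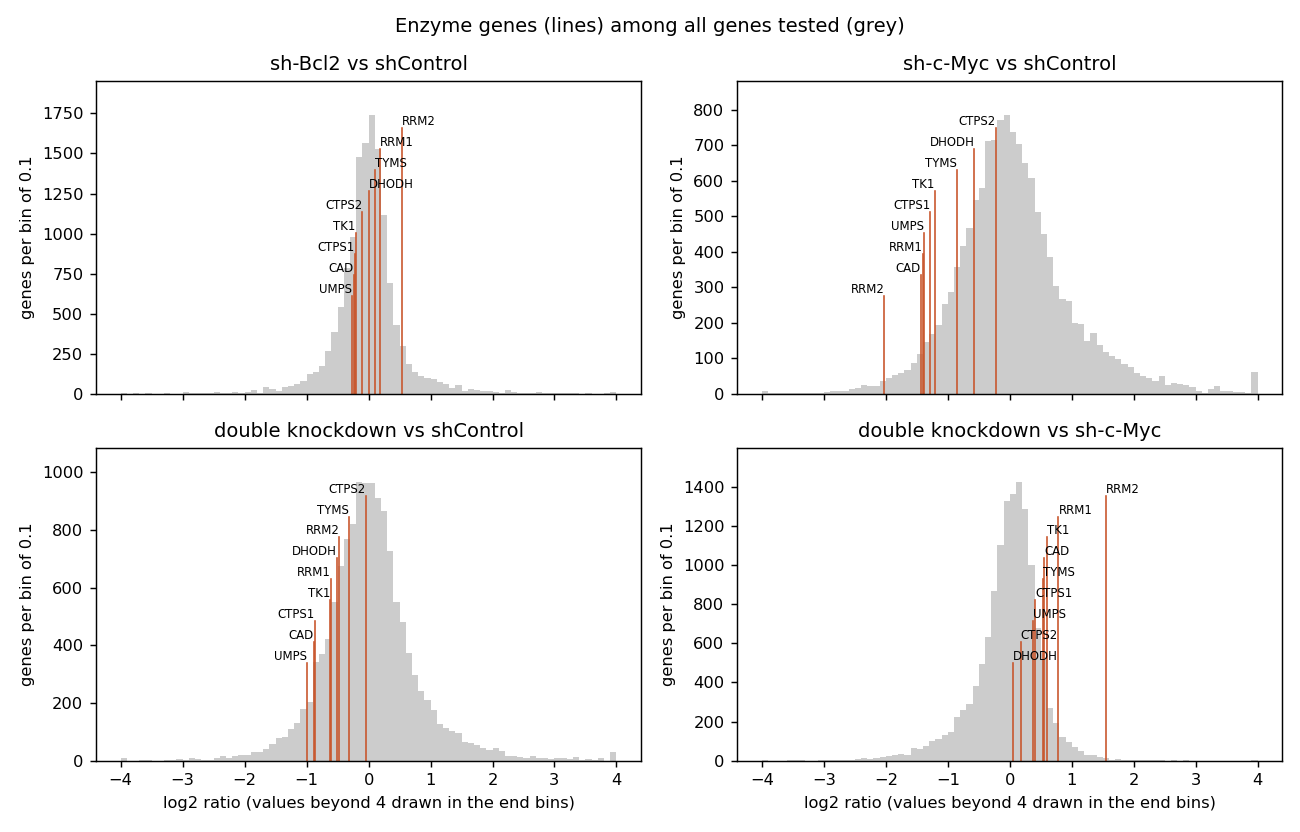
Histograms of the log2 ratios of all 13726 genes tested (grey, genes per bin of 0.1) with the 9 enzyme genes as lines, whose heights only separate the names. The 9 lines lie left of 0 in sh-c-Myc (median -1.28) and right of 0 when both hairpins are set against sh-c-Myc (median 0.54), with RRM2 at 1.56; DHODH, at 0.06 there, moves to -0.04 with total counts.

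The departure from additivity, which is the double knockdown ratio minus the sum of both single ratios, asks whether the hairpins combined as the sum of their separate log2 differences. RRM2 was called at 1.02 [0.83 to 1.21], against 8.84% of all genes called in either direction and 3.02% in the positive one. This call was lost with total counts (0.90), upper quartile scaling (0.88) and FPKM with 1 added (0.77). TK1 at 0.80, CAD at 0.79, UMPS at 0.65, CTPS1 at 0.63, RRM1 at 0.59 and TYMS at 0.43 had intervals above 0. At 1.5-fold 6 genes departed upwards (CAD, UMPS, CTPS1, RRM1, RRM2 and TK1), against 9.91% of all genes. CTPS2 at 0.28 and DHODH at 0.05 did not, and DHODH was at -0.07 with total counts. The median over all genes tested was 0.05.

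A fit of both hairpins over all 4 libraries gave the one test the design allows. Each hairpin term compares 2 libraries with 2, and the single residual degree of freedom holds the departure from additivity and the spread between libraries together. With edgeR's quasi-likelihood test and Benjamini-Hochberg adjustment over 12885 genes, 7 of the 9 genes fell with the c-Myc hairpin, against 15.9% of all genes that fell and 28.9% that changed. The term was -1.46 ± 0.18 (SE) for RRM2, with an edgeR adjusted p of 1.3e-07. It was -1.06 for RRM1, -1.01 for UMPS, -0.999 for CAD, -0.92 for CTPS1 and -0.77 for TK1, with edgeR adjusted p-values from 5.8e-06 to 0.00098. TYMS was at -0.60 with an edgeR adjusted p of 0.046, which limma-voom put at 0.053 and DESeq2 at 0.19, within a range of 0.038 to 0.19 over the alternatives. DHODH was at -0.50 (edgeR adjusted p = 0.058) and CTPS2 at -0.04 (edgeR adjusted p = 0.94). For the Bcl-2 hairpin 0.318% of all genes changed and 0.109% rose; RRM2 rose by 1.01 ± 0.18 (edgeR adjusted p = 0.0020), the only one of the 9. This additive term averages RRM2 ratios of 0.53 without and 1.56 with the c-Myc hairpin, and the test rests on 38.0 prior degrees of freedom, shared across genes, beside the 1 residual. limma-voom gave RRM2 an adjusted p of 0.0024, but DESeq2, which called 13 genes in all, gave 0.12; the other alternatives ranged from 2.9e-06 to 0.019. RRM1, at 0.46, had an edgeR adjusted p of 0.30.

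The 9 profiles over the 4 libraries were compared by the Euclidean distance between log2 CPM values centred on each gene's mean. UMPS and CTPS1 were the nearest pair (0.1001), TK1 lay nearest to the median profile (0.0875) and RRM2 farthest from it (1.07). Of 8968 other genes with at least 10 CPM in shControl, DEPDC1B, RAD51D, RPIA, MRPL58 and SFXN4 lay nearest to the median profile, at 0.021 to 0.042, and 227 lay within 0.2. RPIA, for example, an enzyme that makes ribose 5-phosphate, was at 50.7, 47.2, 22.5 and 32.2 CPM in shControl, sh-Bcl2, sh-c-Myc and the double knockdown. Centred on the mean, the median profile of the 9 genes was 0.49, 0.37, -0.70 and -0.16 in that order.

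Neighbouring steps were read in lists of other pathway genes. Of 10 partners of deoxynucleotide synthesis, 5 were called lower and 1 higher in sh-c-Myc, with 0 lower and 1 higher under both hairpins, against the 9.8% and 5.95% lower and the 12.7% and 7.11% higher among all genes. DUT, which clears dUTP and supplies dUMP, was at 156 CPM with shControl, 127 with sh-Bcl2, 60.7 with sh-c-Myc and 101 with both hairpins. DCTPP1, a dCTP pyrophosphatase that shares 42.1% of its exon bases with ZNF771, had a ratio of -1.46 in sh-c-Myc, SHMT1, the cytosolic serine hydroxymethyltransferase, -1.37, and the reductase's electron donors TXN and TXNRD1 -1.05 and -1.02. The higher gene was SAMHD1, the deoxynucleotide triphosphohydrolase, at 84.7, 114, 199 and 232 CPM across shControl, sh-Bcl2, sh-c-Myc and the double knockdown. It was 2.35-fold above shControl with sh-c-Myc and 2.74-fold with both hairpins. RRM2, by contrast, lay nearer to shControl in the double knockdown library (-0.47) than in the sh-c-Myc library (-2.03).

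Of 9 nucleotide kinases, 3 were called lower in each library with the c-Myc hairpin, against 9.8% of all genes in sh-c-Myc and 5.95% with both hairpins. DTYMK, which phosphorylates dTMP, was at 59.0, 56.9, 28.0 and 37.3 CPM in the order above, NME4 at -1.31 and -1.22 in the libraries with the c-Myc hairpin, and NME1 at -2.32 and -1.29. NME2 was called only in the double knockdown (-1.49, from 10 against 26 counts); NME1 and NME2 overlap the read-through gene NME1-NME2, so their counts are uncertain. Of 7 salvage genes that passed the filter, 2 were called higher in sh-c-Myc, against 12.7% of all genes, and 1 with both hairpins, against 7.11%. They were TK2, the mitochondrial thymidine kinase, at 17.0, 21.7, 44.9 and 42.5 CPM and called in both, and TYMP, the thymidine phosphorylase, at 3.55, 2.25, 8.66 and 6.97 CPM. In sh-c-Myc TK1 was thus called lower and TK2 higher; with both hairpins TK1 was at -0.62, not called, and TK2 at 1.32. Other genes share 25.01% of TK2 exon bases.

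Of 6 breakdown genes that passed, 1 was called higher and 2 lower in each library with the c-Myc hairpin; the shares of all genes called were 12.7% upward and 9.8% downward in sh-c-Myc, and 7.11% and 5.95% with both hairpins. DPYD, which starts uracil catabolism, was higher, at 1.35 with sh-c-Myc and 1.29 with both hairpins. The nucleotidase genes NT5C (-1.21 and -1.07) and NT5M (-1.22 and -1.22) were lower; NT5C, at 37 to 78 counts and with 60.7% of exon bases shared, was also lower in sh-Bcl2. Of 6 transport genes, 2 were called lower and 1 higher in each of these libraries, against the same shares. SLC29A1, the nucleoside transporter ENT1, was at 175 CPM with shControl, 151 with sh-Bcl2, 12.1 with sh-c-Myc and 33.1 with both hairpins. SLC29A1 was 14.4-fold lower in sh-c-Myc [12.4 to 16.8] and 2.72-fold higher in the double knockdown than in sh-c-Myc. SLC25A33, a mitochondrial pyrimidine nucleotide carrier, was at -1.02 in sh-c-Myc, SLC29A2 at -1.02 in the double knockdown, and SLC28A3, a concentrating transporter with 27 to 123 counts, was higher in both, at 1.74 and 2.02.

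A list of 20 S phase genes (replication factors such as MCM helicase and GINS genes, G1/S cyclins, E2F1 and chromatin factors) was read beside the enzymes. In sh-c-Myc 19 were called lower, against 9.8% of all genes, with a median log2 ratio of -1.64. In the double knockdown 3 were, against 5.95%, with a median of -0.78. Against sh-c-Myc, 7 of the 20 were called higher under both hairpins, against 1.65% of all genes, with a median of 0.87, and in sh-Bcl2 the median was -0.01. Their part in the enzyme differences was not tested.

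**Figure D5:**
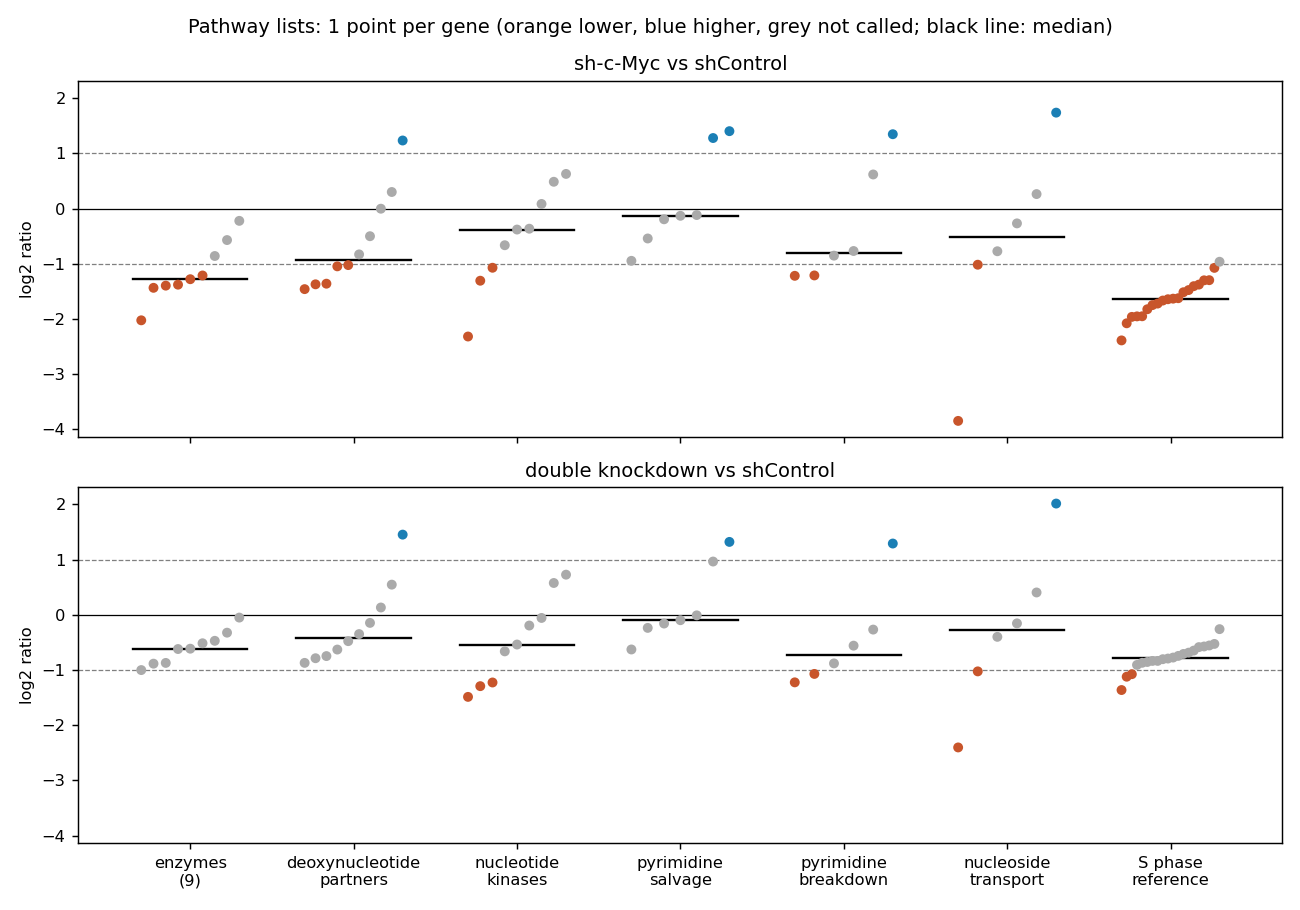
log2 ratios to shControl (vertical axis) of the genes of each pathway list that passed the filter, 1 point per gene, in sh-c-Myc (top) and the double knockdown (bottom); orange points were called lower, blue higher, grey neither, and black lines are medians. The median of the 9 enzymes is -1.28 above and -0.61 below, and that of the S phase list -1.64 and -0.78.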

How the data were processed

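Each of the 4 libraries, 1 a group, had a count and an FPKM value for every gene. Per the submitters' processing notes the authors' counts came from HISAT2 alignment to GRCh38 and HTSeq 0.13.5; annotation release and strand setting: not given in the sources used here. Deposited FPKM values equalled count over length and library total, with lengths whole within 0.01 base for 100% of values, and for the 9 genes these lengths were the GENCODE 29 exon lengths.

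CPM levels and ratios used edgeR 4.0.16 TMM factors of 0.950, 0.965, 1.08 and 1.01 (R 4.3.3). log2 ratios (prior count 0.5) carry exact conditional binomial 95% intervals; the departure has a delta-method interval. Intervals cover counting error only, and reads without molecular identifiers are not independent molecules. A call needs 2-fold, an interval clear of a ratio of 1, and 1 CPM by plain library totals in at least 1 library. The 2 by 2 fit used genes with 1 CPM by plain library totals in at least 2 libraries. Its p-values weigh each term against a residual that holds the departure from additivity and the spread between libraries together (common dispersion 0.0211). They are no check against the spread between replicate cultures, of which there were none. Alternatives were other scalings, filters, a 1.5-fold limit, log2 of FPKM plus 1, removal of a GC and length trend, DESeq2 1.42.0 and limma-voom (limma 3.58.1). The ratio and fit scripts were tested on simulated data.

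The 9 genes and all lists were chosen with earlier results of these data known. Genes named are the 9; RRM2B, TK2, DUT, MYC and BCL2; up to 6 called members of each pathway list; and the 5 genes nearest in profile. Genes named beside an overlap or as markers fall outside this rule and were chosen after their values were seen. The values of 1 further gene that this rule names are not reported here.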

Additional observations from a re-analysis of the deposited data

Results flagged for a closer look

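For 4 genes the Bcl-2 hairpin ratio had opposite signs without and with the c-Myc hairpin, which marked them for a closer look. Each of these ratios had a counting interval that excluded 0. The share of all genes tested that met the same rule was not computed. Whether the rule picks out these genes more often than others therefore cannot be said. The log2 ratio of sh-Bcl2 to shControl was -0.24 for CAD, and that of the double knockdown to sh-c-Myc was 0.55. The same pair of values was -0.27 and 0.38 for UMPS, -0.22 and 0.41 for CTPS1, and -0.21 and 0.59 for TK1. With 1 library per group these differences were not tested against the spread between cultures. For TK1 the opposite sign was lost with the GC and length trend removed, where its value without the c-Myc hairpin was 0.05. Under the same setting that value for CAD was -0.12, nearer to 0, and that for CTPS1 was -0.32.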

How the results depend on the processing

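The 6 genes called lower in sh-c-Myc remained called with total counts, DESeq2 size factors, upper quartile scaling, both filters and the GC and length trend removed. Under those settings 14.9% to 22.9% of all genes were called. Such shares of all genes, in either direction, are given in brackets below. In sh-c-Myc log2 of FPKM plus 1 called 4 (12.1%) and the 1.5-fold limit 7 (40.4%). In the double knockdown against shControl the count of 0 became 5 at 1.5-fold (28.1%) and 2 with the GC and length trend removed (12.8%). Against sh-Bcl2 the count of 1 became 0 with total counts (9.02%), DESeq2 size factors (8.78%) and upper quartile scaling (8.91%). It also became 0 with FPKM plus 1 (3.03%) and the trend removed (8.68%), and 5 at 1.5-fold (21.1%). Against sh-c-Myc the count of 1 became 3 at 1.5-fold (15.1%). For the departure the count of 1 became 0 with total counts (9.51%), upper quartile scaling (9.54%) and FPKM plus 1 (4.57%), and 6 at 1.5-fold (19.2%). For the Bcl-2 hairpin term DESeq2 gave 0 genes of the 9 (0.101%) where edgeR gave 1 (0.318%). A lower fold limit adds calls by construction; for the other settings the cause was not tested. In sh-Bcl2 all settings gave 0 (1.39% to 10.1%). For the c-Myc term 6 genes passed under each alternative except no filter, which gave 7 (13.9% to 31.4% over the alternatives). TYMS was the gene lost. Scaling moved the sh-c-Myc median of genes averaging 50 counts or more from -0.10 (TMM) to 0.08 (total counts). Depth limits CTPS2 (91 to 103 counts) and TYMS (162 to 307 counts). No paired analysis was possible because the groups share only the replicate number 1, and no library could be left out of a group of 1.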
